A study of Mus musculus with 8 samples.

Results

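Potassium channel genes were defined as the protein-coding genes whose symbol in the GENCODE M21 annotation begins with Kcn, with Kcnj13 left out. The count table held 93 such genes among 22028 protein-coding genes and 55536 genes in all. The 68 members that gathered at least 80 raw counts over the 8 libraries were kept, and they are grouped below by subfamily letter and role. Of the 25 genes under this minimum, 7 had no count in any library, and no gene of the Kcne subfamily of small accessory subunits was kept. The member nearest the minimum was Kcng2 with 88 raw counts, and the nearest gene outside was Kcnu1 with 76, whose normalized counts averaged 12.5 in the WT and 6.53 in the knockout libraries.

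The data were bulk RNA-seq libraries of frontal cortex from mice 8 weeks old, 4 of wild-type (WT) littermates and 4 of mice lacking HAR123 (HAR123-KO), a conserved enhancer that carries human-specific base changes. All animals were on the C57BL/6J background, to which the knockout had been backcrossed, and the knockout had been made in C57BL/6J embryos with Cas9 and a pair of guides. The comparison addressed which genes HAR123 controls in a region tied to cognitive flexibility. The sex of the animals and the number of founder lines behind the knockout are not given in the sources used here, the deletion was present in every cell of the animal, and nothing in the labels ties each library to a separate mouse, so p-values measure the spread between these samples.

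Potassium channels let potassium leave the cell, which brings the membrane back to rest after an action potential and sets how easily a neuron fires. Voltage-gated pore subunits assemble as tetramers that open on depolarization, silent subunits join them without forming a channel of their own, inward rectifiers and tandem-pore channels hold the resting potential, and calcium- or sodium-activated channels follow the entry of those ions. Auxiliary subunits change the gating, inactivation or surface delivery of the pores. In the cortex the mix of these subunits differs between pyramidal cells, fast-spiking interneurons and glia.

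Library totals ran from 13528251 to 17051001 counts, but the noncoding gene Gm42418 took 55.1 to 58.0% of them, and nuclear protein-coding genes received 2786320 to 3732172. The 68 members together received 22745 to 30679 counts per library, which was 0.802 to 0.826% of the nuclear protein-coding counts. Summed over members, the level after normalization was 25867 ± 177 for WT and 25481 ± 289 for HAR123-KO libraries (SD, n = 4 each), and the genotypes overlapped. Marker lists for other cells and regions were read in the same libraries. The summed pan-neuronal markers spanned 21638 to 22375 in WT and 21682 to 22183 in HAR123-KO. Of the 79 listed markers found in the count table, 3 had no count in at least 1 library. These were the choroid plexus markers Aqp1, Otx2 and Sostdc1. The claustrum and layer 6b marker Ctgf was listed but not found under that symbol. Striatal projection neuron markers were higher in HAR123-KO for 12 of 12 genes, of which 10 rose, and their sum was 6197 to 6349 in WT and 8129 to 8234 in HAR123-KO. Choroid plexus markers summed to 90.1 to 103 in WT and 722 to 761 in HAR123-KO, most of it from Ttr, and without Ttr to 24.8 to 31.0 and 93.2 to 109.6. In bulk tissue, fewer cells of a type and less RNA per cell cannot be told apart.

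Among the 68 potassium channel genes, only Kcnab1 passed the test. Kcnab1 encodes a cytosolic beta subunit that binds Kcna pores and gives them fast inactivation, and its level rose in HAR123-KO. DESeq2 gave an adjusted p to 63 members, so 1 of 63 was called, or 1.59%, beside 1.69% of all genes tested. In the upward direction it was 1 member beside 0.972% of all genes, and in the downward direction 0 members beside 0.713%. Kcna5, Kcnh6, Kcng2, Kcnk6 and Kcnmb2 had counts too low for an adjusted p. The edgeR quasi-likelihood test called 4 of 68 members, beside 2.28% of all genes it tested, with 2 higher beside 1.26% and 2 lower beside 1.02%. With limma-voom 2 of 68 were called beside 2% of all genes, 1 higher beside 1.11% and 1 lower beside 0.889%.

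Kcnab1 (ENSMUSG00000027827) lies on the plus strand of chromosome 3, from 65109384 to 65378223 in GRCm38. The WT libraries had 395, 409, 452 and 462 normalized counts, and the HAR123-KO libraries 553, 495, 548 and 497. Every knockout library was above every WT library. The mean went from 430 ± 32.7 to 523 ± 31.4 (SD, n = 4 each), a log2 fold change of 0.28 with a standard error of 0.06 and a 95% interval of 0.16 to 0.41, and the adjusted p from DESeq2 was 0.0012. Without WT replicate 1 the log2 fold change was 0.25 and the adjusted p 0.0539. Over all alternatives the adjusted p ran from 0.000428 to 0.99995, and the highest came from the DESeq2 fit with the replicate number as a block, where the call was lost as well. Of the counted exon bases of Kcnab1, 2.34% also belong to A330015K06Rik.

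RefSeq places 3 transcription starts at Kcnab1, and the 300 bases around each are shown because a change in the summed gene count cannot say which of them it came from. Each sequence runs from 250 bases before the start to 50 after it, in GRCm38.p6 on the plus strand, with capitals for the GC box GGGCGG or its reverse complement and for the TATA box TATAAA or its reverse complement.
Kcnab1 first start, chr3:64948962-64949261: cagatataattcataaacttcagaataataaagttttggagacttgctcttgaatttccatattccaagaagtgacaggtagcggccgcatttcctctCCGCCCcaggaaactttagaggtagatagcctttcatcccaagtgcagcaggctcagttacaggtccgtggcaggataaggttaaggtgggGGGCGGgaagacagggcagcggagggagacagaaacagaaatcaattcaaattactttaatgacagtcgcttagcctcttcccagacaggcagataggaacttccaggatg
Kcnab1 second start, chr3:65108764-65109063: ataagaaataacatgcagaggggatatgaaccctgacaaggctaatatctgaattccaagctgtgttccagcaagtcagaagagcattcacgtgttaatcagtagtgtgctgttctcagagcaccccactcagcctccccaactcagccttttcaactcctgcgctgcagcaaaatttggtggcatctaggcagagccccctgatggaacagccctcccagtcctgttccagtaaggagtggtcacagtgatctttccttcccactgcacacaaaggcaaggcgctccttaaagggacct
Kcnab1 last start, chr3:65187853-65188152: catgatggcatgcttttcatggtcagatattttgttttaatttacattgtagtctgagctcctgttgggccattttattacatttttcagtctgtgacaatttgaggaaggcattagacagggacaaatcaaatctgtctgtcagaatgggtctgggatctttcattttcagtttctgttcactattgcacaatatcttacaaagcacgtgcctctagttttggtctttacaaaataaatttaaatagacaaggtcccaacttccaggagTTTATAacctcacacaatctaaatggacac
The first start lies 160 kb before the interval in which reads were counted for Kcnab1. The second lies 159.8 kb and the last 238.9 kb downstream of the first. The first sequence holds 2 GC boxes and no TATA box, and the second holds neither. The last holds 1 match to the TATA box sequence, which lies after the start and on the opposite strand. GC content was 46.7%, 50.3% and 36.7% in that order. Across the 48 members with RefSeq promoters, 71 in all, the median GC content was 61.3%, beside 57.0% over 20150 promoters of protein-coding genes. A GC box was present in 50.7% of the members' promoters and 47.8% of all of them, and a TATA box in 4.23% and 12.1%. The nuclear receptor element AAAGGTCA was found in 1.41% of the members' promoters and 1.32% of all, and the cAMP response element TGACGTCA in 0 and 2.31%. All motifs were searched on both strands and over all 300 bases, whatever their distance from the start. A match is therefore a match of sequence and not a shown promoter element.

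None of the other auxiliary subunits passed the test. Of all 9 auxiliary members, 7 had a higher and 2 a lower estimate in the knockout, and their log2 fold changes had a median of 0.03. Kcnab2, the beta subunit that helps carry Kcna channels to the axon, had the highest level of all members at 229 normalized counts per kb of exon. Its means were 1253 ± 26.8 and 1303 ± 27.5, a log2 fold change of 0.06 with an interval of -0.02 to 0.13. Kcnab3 had a log2 fold change of 0.09. The 3 Kcnab genes summed to 1759 to 1858 in WT and 1915 to 2037 in HAR123-KO, without overlap. This sum includes Kcnab1, and taken singly Kcnab2 and Kcnab3 each overlapped between the genotypes. No test was run on the sum. Kcnip2, a calcium-binding partner of Kcnd pores, had a log2 fold change of -0.04 with an interval of -0.17 to 0.09. Kcnmb4, the neuronal beta subunit of the large-conductance calcium-activated channel, had 0.01, and 31.5% of its exon bases also belong to the antisense genes Kcnmb4os1 and Kcnmb4os2.

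**Figure D1:**
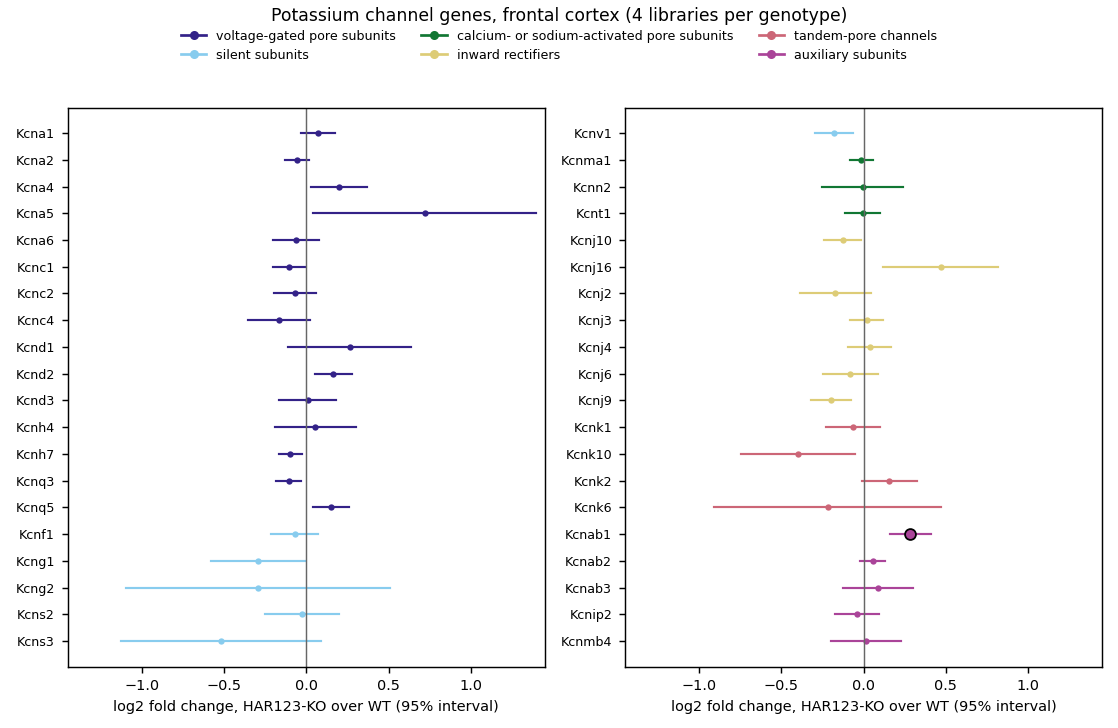
Log2 fold change (HAR123-KO over WT) of the 40 potassium channel genes with values of their own in the text, each with its 95% interval, colored by role, from DESeq2 with 4 libraries per genotype. Kcnab1, circled, was the member with an adjusted p under 0.05, at 0.28.

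Estimates of the members as a whole centered near zero. There were 31 higher and 37 lower. Log2 fold changes ran from -0.52 to 0.72 around a median of -0.01, and the median over 12445 protein-coding genes with at least 80 counts was -0.00026. The median size of the change without regard to sign was 0.0867 for members and 0.0882 for those genes. The unadjusted p was under 0.05 for 15 members, which is 22.1% beside 8.47% of the protein-coding genes. Of these, 6 were higher and 9 lower, where 4.41% and 4.06% of the protein-coding genes were. The members were also more abundant than those genes, with a median mean count of 228 against 104. Where the mean normalized count was 100 or more, 11 of 46 members had an unadjusted p under 0.05, 23.9% beside 11.8%, and 1 of 46 was called, beside 2.68%. The genotypes did not overlap for 7 members, 10.3% beside 7.46% of the protein-coding genes. At a mean of at least 100 it was 4 of 46, 8.70% beside 9.95%.

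Summed by role, with no test on the sums, 3 of the 6 roles did not overlap between the genotypes, and all 3 were lower in the knockout. The sum over the 12445 protein-coding genes with at least 80 counts was also lower without overlap, with a ratio of 0.988. The voltage-gated pores summed to 14225 to 14419 normalized counts in WT and 13842 to 14192 in the knockout, and their mean ratio was 0.982. The inward rectifiers summed to 2827 to 2928 and 2707 to 2825, with a ratio of 0.959. The silent subunits summed to 1276 to 1324 and 1155 to 1229, with a ratio of 0.927. The sums of the other roles overlapped, with ratios of 1.05 for auxiliary subunits, 0.993 for calcium- or sodium-activated pores and 0.965 for tandem-pore channels. Taken singly, 4 voltage-gated members did not overlap (15.4%), 3 higher and 1 lower in the knockout. For inward rectifiers it was 1 (11.1%), which was higher, and for silent subunits 0, beside 7.46% of the protein-coding genes. The sums therefore do not show a decrease across the members of a role.

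The precision differed between members. Standard errors on the log2 scale ran from 0.03 to 0.41, with a median of 0.09. The 95% interval lay within 0.5 of zero on either side for 51 of 68 members and within 0.2 for 18, so a log2 change of 0.5 was outside the interval for those 51 members. For the other 17, all with means of 82.9 or less, the interval reached beyond that size.

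**Figure D2:**
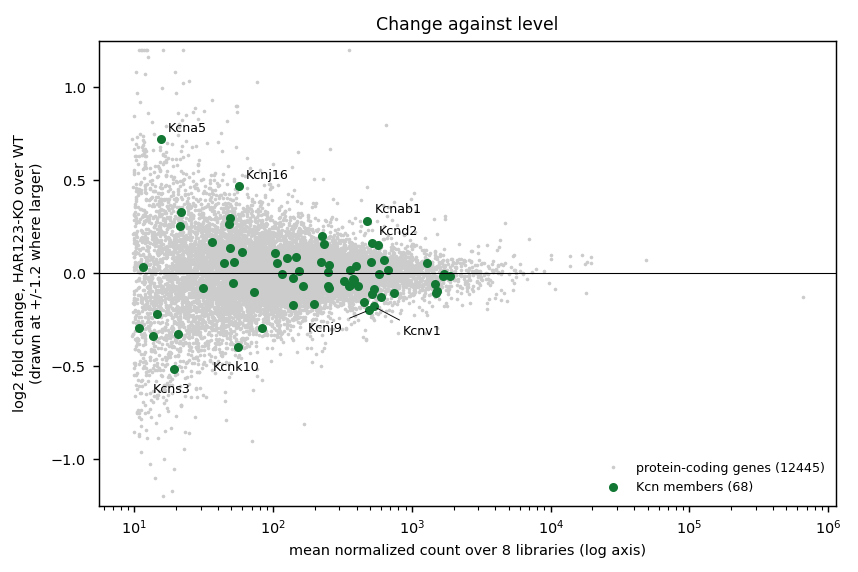
Log2 fold change against mean normalized count (log axis) for the 68 members in green and 12445 protein-coding genes in grey. The largest estimates, Kcna5 at 0.72 and Kcns3 at -0.52, belong to members with low counts.

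Voltage-gated pore subunits made up 26 of the members, and none of them passed the test. Their estimates were higher for 12 and lower for 14 around a median of -0.01 (log2). An unadjusted p under 0.05 was found for 8, or 30.8%, beside 8.47% of the protein-coding genes with at least 80 counts. That background share grew with abundance, to 11.8% at a mean of at least 100 and 21.5% at a mean of at least 500. The median mean count of this role was 383. Kcnd2 carries the dendritic A-type current, which opens below threshold and inactivates fast. Its counts were 483, 484, 486 and 478 in WT and 546, 552, 554 and 510 in HAR123-KO. Every knockout library lay above the WT libraries. The log2 fold change was 0.16 with a standard error of 0.06, and the adjusted p was 0.165 with DESeq2 and 0.0462 with edgeR. Over the alternatives it ran from 0.0462 to 0.99995. The other Kcnd genes had higher estimates as well, 0.26 for Kcnd1 with a standard error of 0.19 and 0.01 for Kcnd3 with a standard error of 0.09.

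The Kcnc subfamily provides the high-threshold, fast-closing channels of fast-spiking neurons. Kcnc1 went from 772 ± 20.2 to 716 ± 29.4 (SD, n = 4 each), with a log2 fold change of -0.11, a standard error of 0.05 and an adjusted p of 0.467 from DESeq2. The log2 fold changes of Kcnc2 and Kcnc4 were -0.07 and -0.17. None of these passed the test.

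The Kcnq genes encode the subunits of the M-current, a slow current that limits repetitive firing. Kcnq3 had 1554, 1563, 1468 and 1578 counts in WT and 1422, 1370, 1444 and 1476 in HAR123-KO, with a log2 fold change of -0.11, a standard error of 0.04 and an adjusted p of 0.154 from DESeq2. Kcnq5 pointed the other way. It had 524, 554, 529 and 549 counts in WT and 617, 627, 600 and 544.5 in HAR123-KO, so that HAR123-KO replicate 4 lay among the WT libraries, and the log2 fold change was 0.15 with an adjusted p of 0.23 from DESeq2.

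The Kcna genes form low-threshold channels that sit along axons. Kcna4, a pore with fast inactivation, had 203, 209, 211 and 211 counts in WT and 224, 244, 233 and 255 in HAR123-KO. The genotypes did not overlap, the log2 fold change was 0.20 with a standard error of 0.09, and the adjusted p from DESeq2 was 0.414. Kcna5 had 6.75 to 13.6 counts in WT and 15.2 to 23.5 in HAR123-KO, a log2 fold change of 0.72 with a standard error of 0.35 and no adjusted p. Kcna1 and Kcna2, the most abundant of the subfamily per kb, had log2 fold changes of 0.07 and -0.06 with intervals of -0.03 to 0.17 and -0.13 to 0.01. Kcna5, Kcna1 and Kcna6 lie in a row on chromosome 6 with gaps of 105 and 61.9 kb, and their estimates were 0.72, 0.07 and -0.06, although 39.6% of the exon bases of Kcna6 are shared with Gm26673.

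Of the remaining voltage-gated members, Kcnh7, an ether-a-go-go related subunit, had 1504, 1594, 1596 and 1557 counts in WT and 1473, 1470, 1442 and 1468 in HAR123-KO. All knockout values were below all WT values, by a log2 fold change of -0.10 with a standard error of 0.04 and an adjusted p of 0.219 from DESeq2. The 7 Kcnh members summed to 3120 to 3182 in WT and 2996 to 3112 in HAR123-KO, without overlap and without a test on the sum. Kcnh7 is part of this sum, and it was the only Kcnh member whose genotypes did not overlap when taken singly. Kcnh4, from the elk branch of the same family and abundant in the striatum, averaged 104 ± 1.95 and 108 ± 8.99, a log2 fold change of 0.05 with an interval of -0.19 to 0.30.

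**Figure D3:**
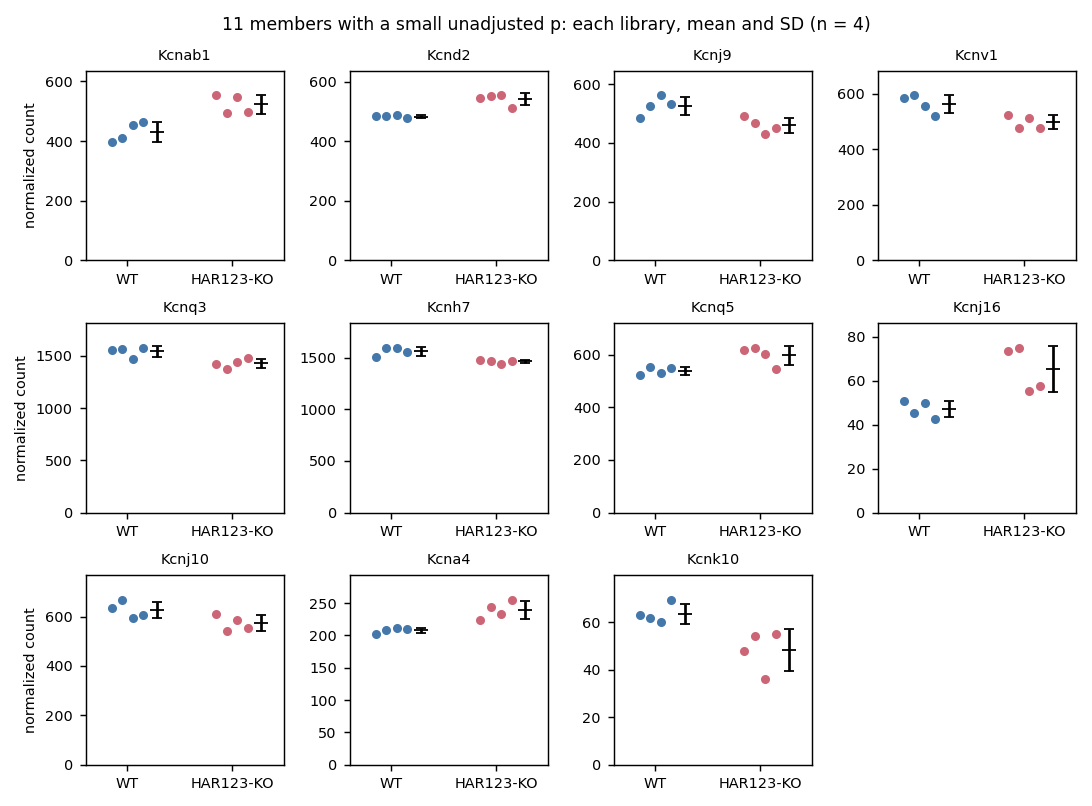
Normalized counts of 11 members with a mean of at least 50 and a small unadjusted p, each library as a point in replicate order, with the mean and SD of 4 libraries per genotype. Kcnab1, Kcnd2, Kcnj16 and Kcna4 were higher in every HAR123-KO library than in any WT library, and Kcnh7 and Kcnk10 were lower.

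The silent subunits had mostly lower estimates, 6 of 9, around a median of -0.07 (log2), and none passed the test. Kcnv1, which suppresses or slows Kcnb channels when it joins them, had the highest level of the group at 116 normalized counts per kb. It had 583, 594, 557 and 520 counts in WT and 524, 475, 514 and 475 in HAR123-KO, with WT replicate 4 among the knockout values. The log2 fold change was -0.18 with a standard error of 0.06, and the adjusted p was 0.108 with DESeq2, 0.0352 with edgeR and 0.0464 with DESeq2 without WT replicate 4. Kcng1 averaged 91.6 ± 8.12 and 74.1 ± 11.2, a log2 fold change of -0.30 with an adjusted p of 0.535 from DESeq2. Kcnf1, another partner of Kcnb pores, had a log2 fold change of -0.07 with an interval of -0.21 to 0.07, and -0.01 without WT replicate 4. Kcns2 was at -0.03 and Kcns3, with means of 22.6 and 15.97, at -0.52 with a standard error of 0.31.

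Calcium- or sodium-activated pores had the smallest median size of change of the 6 roles, 0.0238 on the log2 scale without regard to sign. None of the 6 genes had an unadjusted p under 0.05. Kcnma1, the pore of the large-conductance calcium-activated channel, had 1820 to 1938 counts in WT and 1779 to 1919 in HAR123-KO, and its interval of -0.08 to 0.05 was among the narrowest. Kcnn2, a small-conductance channel that shapes the afterhyperpolarization, had a log2 fold change of -0.01 with a standard error of 0.12. Kcnt1, a sodium-activated channel, also had -0.01 with an interval of -0.12 to 0.10.

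Inward rectifiers had 4 higher and 5 lower estimates among 9 members, a median log2 fold change of -0.07, and no member that passed the test. Kcnj9 encodes a subunit of the channel that G proteins open downstream of inhibitory receptors. It had 485, 524, 562 and 532 counts in WT and 490, 468, 431 and 450 in HAR123-KO, and WT replicate 1 lay below the highest knockout library. The mean was 526 ± 31.5 for WT and 460 ± 25.2 for HAR123-KO (SD, n = 4 each), a log2 fold change of -0.20 with an interval of -0.32 to -0.08. The adjusted p was 0.0653 with DESeq2, 0.0164 with edgeR and 0.0419 with limma-voom, and over all alternatives it ran from 0.0164 to 0.99995. The other subunits of the same channel were at 0.02 for Kcnj3, of whose exon bases 31.1% are shared with Gm26794, and -0.08 for Kcnj6, with intervals of -0.08 to 0.12 and -0.25 to 0.09.

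Kcnj9 and Kcnj10 lie 11.9 kb apart on chromosome 1 and are read in opposite directions, away from each other. Kcnj10 is the main inward rectifier of astrocytes, where it takes up potassium released by neurons. Their promoters are shown because both neighbors had lower estimates, with the same marks in capitals as above.
Kcnj9, minus strand, chr1:172329273-172329572: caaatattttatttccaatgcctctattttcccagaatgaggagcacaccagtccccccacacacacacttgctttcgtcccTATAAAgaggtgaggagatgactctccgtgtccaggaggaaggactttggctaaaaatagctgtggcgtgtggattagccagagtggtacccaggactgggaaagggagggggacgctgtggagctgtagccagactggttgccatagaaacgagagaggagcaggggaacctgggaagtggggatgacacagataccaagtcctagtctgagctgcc
Kcnj10, plus strand, chr1:172340960-172341259: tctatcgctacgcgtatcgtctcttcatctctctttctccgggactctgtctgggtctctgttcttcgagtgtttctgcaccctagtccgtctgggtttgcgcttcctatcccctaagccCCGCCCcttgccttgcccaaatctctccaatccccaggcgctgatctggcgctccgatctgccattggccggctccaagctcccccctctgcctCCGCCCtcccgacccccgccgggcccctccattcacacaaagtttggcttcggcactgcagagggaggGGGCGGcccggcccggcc
The promoter of Kcnj9 holds 1 match to the TATA box sequence and no GC box at 52.3% GC. That match lies nearer to the upstream end of the sequence than to the start. The promoter of Kcnj10 holds 3 GC boxes and no TATA box at 63.7% GC. Kcnj10 had 636, 668, 596 and 607 counts in WT and 611, 540, 587 and 552 in HAR123-KO. The genotypes overlapped, the log2 fold change was -0.13 with a standard error of 0.06, and the adjusted p from DESeq2 was 0.411. Of 7 astrocyte markers 6 had lower estimates and 3 fell, and their sum was 21573 to 22215 in WT and 19924 to 20466 in HAR123-KO. Their part in the Kcnj10 value was not tested.

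Kcnj16, which pairs with Kcnj10 in a pH-sensitive channel, had 50.7, 45.3, 49.99 and 42.8 counts in WT and 73.7, 75.1, 55.5 and 57.4 in HAR123-KO. All knockout libraries were above the WT libraries, with a log2 fold change of 0.47, a standard error of 0.18 and an adjusted p of 0.242 from DESeq2. Its neighbor on chromosome 11, Kcnj2, is 38.2 kb away and encodes a strong inward rectifier. Kcnj2 averaged 146 ± 8.52 and 130 ± 7.37, a log2 fold change of -0.17 with an interval of -0.39 to 0.04. Kcnj4, a strong rectifier of forebrain neurons, had the highest level of the group at 183 normalized counts per kb and a log2 fold change of 0.04 with an interval of -0.09 to 0.17.

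Tandem-pore channels carry background currents. Of 9 members 3 had a higher and 6 a lower estimate, the median log2 fold change was -0.10, and none passed the test. Kcnk10, which responds to stretch and lipids, had 63.1, 61.8, 60.2 and 69.5 counts in WT and 48.1, 54.2, 36.1 and 55.3 in HAR123-KO. The knockout libraries were all below the WT libraries, with a log2 fold change of -0.40, a standard error of 0.18 and an adjusted p of 0.428 from DESeq2. Kcnk2, its close relative, averaged 221 ± 14.4 and 245 ± 9.19, with a log2 fold change of 0.16 and an interval of -0.01 to 0.32. Kcnk1, the most abundant of the group at 110 normalized counts per kb, was at -0.07 with an interval of -0.23 to 0.10.

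**Figure D4:**
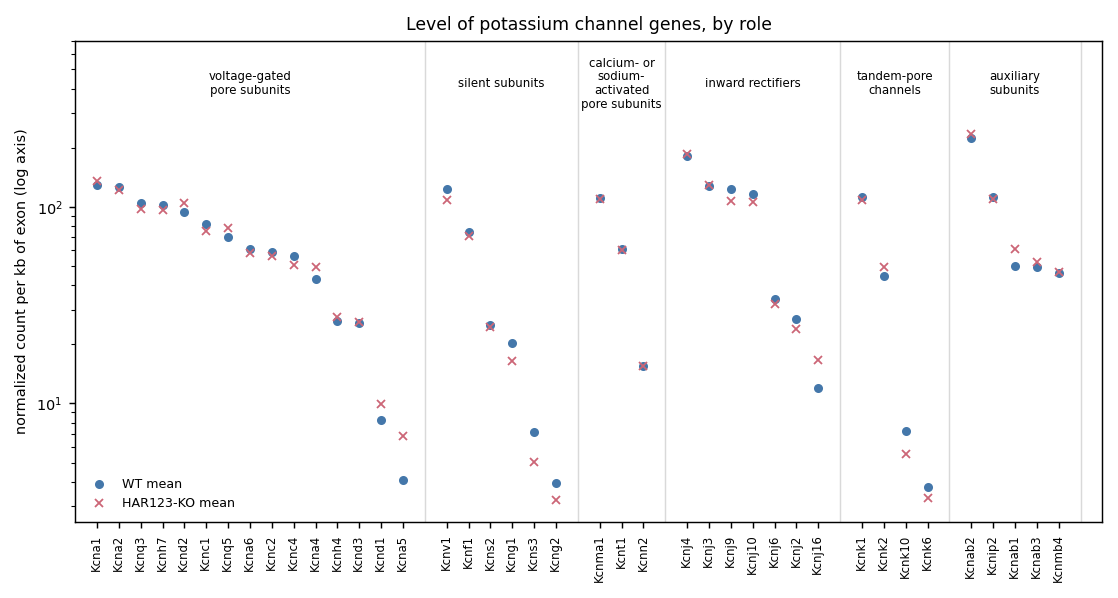
Mean level of 40 members in WT (circles) and HAR123-KO (crosses), in normalized counts per kb of counted exon on a log axis, ordered by level within each role. Levels ran from 3.53 for Kcnk6 to 229 for Kcnab2 as means over all 8 libraries.

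Genes that handle potassium outside the Kcn names were read from fixed lists. Among 26 auxiliary and clustering proteins, 14 had higher and 10 lower estimates, Lrrc26 and Lrrc52 had no counts, none rose, and Calm3 fell. This was 1 of the 23 with an adjusted p, where 0.972% of all genes tested rose and 0.713% fell. Calm3, a calmodulin gene whose protein is a fixed part of small-conductance and M-current channels, had a mean of 4208 ± 102 in WT and 3899 ± 97.5 in HAR123-KO, a log2 fold change of -0.11 with an adjusted p of 0.00525 from DESeq2. None of the 4 HCN channel genes passed the test. Of 9 potassium pumps and cotransporters, 2 had higher and 7 lower estimates, and 1 passed the test, beside 1.69% of all genes tested. Slc12a2, a sodium-potassium-chloride importer, rose from 334 ± 18.01 to 402 ± 17.9, a log2 fold change of 0.27 with an adjusted p of 0.00979 from DESeq2.

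Some of the other marker lists did not overlap between the genotypes. Oligodendrocyte markers summed to 14611 to 15079 in WT and 16529 to 16894 in HAR123-KO, with 5 of 6 higher and 3 that rose. Endothelial markers summed to 435 to 475 and 343 to 379, with 8 of 8 lower and 1 that fell. Upper layer neuron markers summed to 2952 to 3117 and 2720 to 2841, with 5 of 5 lower and 1 that fell. Claustrum and layer 6b markers summed to 601 to 692 and 432 to 469, with 4 of 5 lower and 2 that fell. All 8 choroid plexus markers were higher, and the 2 that had an adjusted p both rose. The others had counts too low for an adjusted p. For pericyte, microglia, deep layer and interneuron markers the sums overlapped. The part that any of these, or the striatal markers, had in the values of Kcnab1 and of the other members was not tested.

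**Figure D5:**
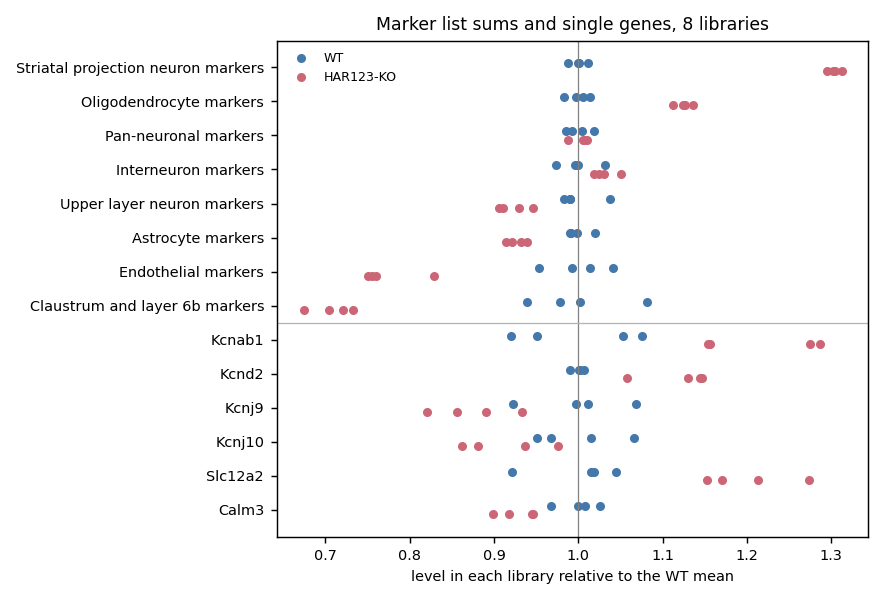
Summed marker lists, and single genes under the line, in each of the 8 libraries relative to the WT mean of that list or gene. The striatal markers of the HAR123-KO libraries sit at a mean ratio of 1.30, and Kcnab1, Kcnd2 and Slc12a2 lie above 1 in all 4 of them.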

How the data were processed

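Per the labels and the methods of the study, total RNA was depleted of ribosomal RNA, made into stranded libraries, sequenced in pairs, aligned by the authors with STAR 2.5.2b to GRCm38 with Ensembl annotation, and counted with featureCounts. The strand and multi-mapping settings are not given in the sources used here. The deposited values are raw counts per gene, with exon length as another column. All 55536 gene IDs matched GENCODE M21.

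Here DESeq2 1.42.0 in R 4.3.3 was fitted to all genes by genotype (Wald test, median-of-ratios size factors, Benjamini-Hochberg adjustment), and a call was an adjusted p under 0.05. DESeq2 replaced its parametric dispersion trend by a local one. The study's own tool was kept as the main test, with edgeR 4.0.16 and limma 3.58.1 as alternatives. Fold changes are not shrunken, intervals are 95% from the Wald standard error, and levels per kb divide normalized counts by the counted exon length. Two-sided p-values were used. Members received 22745 to 30679 counts per library, and counting error and the spread between 4 libraries per genotype were not separated.

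The members and lists were chosen with earlier results of these data known. Named members were those called, up to 12 with a mean of at least 50 and an unadjusted p under 0.05, the most abundant per kb in each subfamily, 18 well known genes, and those nearest the minimum of 80 counts. Some genes that this rule or the lists name are not reported here. Kcna5, Kcna6, Kcnab3, Kcnc4, Kcnd1, Kcnd3, Kcnh6, Kcnj3, Kcnk6, Kcnmb2 and Kcns3 were named after their values were seen. Promoters are from RefSeq, GRCm38.p6, matched by symbol for 48 of 68 members. Of the members, 24 share exon bases with another gene, 6 of them over 10%.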

Additional observations from a re-analysis of the deposited data

Results flagged for a closer look

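In 64 groups of 4 libraries, the 31 named members and Kcnu1 in each genotype, the distance of the highest or lowest library from the nearest other was compared with the range of the group. It passed the 95% limit in 3 groups, and chance alone gives about 3.2. Kcnk2 had 259 normalized counts in HAR123-KO replicate 1 and 240 to 242 in the other knockout libraries. Kcna1 had 635 in WT replicate 3 and 610 to 614 in the others. Kcnf1 had 403 in WT replicate 4 and 341 to 347 in the others.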

How the results depend on the processing

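The number of members called was 1 (1 higher, 0 lower), and it stayed at that with TMM factors, size factors from nuclear protein-coding genes, at least 10 counts required in 4 of the libraries, the independent filter switched off, no member minimum and a minimum of 400. With edgeR it was 4, 2 higher and 2 lower, beside 2.28%, 1.26% and 1.02% of all genes tested, and with limma-voom 2, 1 in each direction, beside 2%, 1.11% and 0.889%. With a log2 limit of 0.5, or of 1 at an adjusted p under 0.01, it was 0, beside 0.298% and 0.0235% of all genes. Leaving out 1 library gave 0 to 2 members, 0 to 1 higher and 0 to 1 lower: 0 without WT replicate 1, where 133 genes were called in all (0.714%), and 2 without WT replicate 4 (1.68%), which adds Kcnv1. With the replicate number as a block in DESeq2 it was 0, 0 higher and 0 lower, with Kcnab1 at 0.28 and an adjusted p of 0.99995, and 22 genes were called over the whole table in place of 215. Deviations of same-numbered libraries correlated between -0.03 and 0.04, and 3 of 8 libraries correlated best with their own number. The labels do not say what the number stands for. These correlations cannot show whether same-numbered samples shared a litter, day or batch. The cause of these changes was not tested. Of 465 alternative log2 fold changes of 31 named members, 444 kept direction and call, 5 gained a call, 2 lost it and 14 reversed. The reversals came from leaving out 1 library, for members near zero: Kcnip2 from -0.0628 to 0.0035, Kcnma1 from -0.0296 to 0.00518, Kcns2 from -0.0938 to 0.0343, Kcnmb4 from -0.0486 to 0.0709, Kcnt1 from -0.0275 to 0.0233 and Kcnn2 from -0.103 to 0.0572. Other estimates near zero kept their sign but moved by over 1.5 times, Kcnf1 from -0.104 to -0.0102 (without WT replicate 4), Kcnj6 from -0.119 to -0.0127 (without WT replicate 2), Kcnk1 from -0.119 (without HAR123-KO replicate 4) to -0.0291 (without HAR123-KO replicate 2), Kcnc2 from -0.093 to -0.0462 (without WT replicate 3), Kcnh4 from 0.00394 (without HAR123-KO replicate 4) to 0.0972 (without HAR123-KO replicate 1) and Kcnj4 from 0.0126 (without HAR123-KO replicate 1) to 0.0715 (without WT replicate 4). For 17 members the interval reached beyond 0.5.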
